A study of Rattus norvegicus with 74 samples.

Results

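The miRNAs miR-192, miR-194 and miR-215 were followed in whole kidney of untreated F344 rats, an inbred strain used in toxicology, from 2 to 104 weeks of age. They were chosen by name: every miRNA of the array named miR-192, miR-194 or miR-215, with either arm of the hairpin or none given, for which any array found a signal. The array carried 5 miRNAs of these names among its 677. Of these, 4 were among the 311 expressed miRNAs, those that any of the 74 arrays detected: rno-miR-192-5p, rno-miR-192-3p, rno-miR-194-5p and rno-miR-194-3p (rno for the rat). The fifth, rno-miR-215, was detected on 0 of 74 arrays. Females and males were sampled at 4 younger ages (2, 5, 6 and 8 weeks) and 4 older ones (15, 21, 78 and 104 weeks), with 4 or 5 animals of each sex at each age and 1 animal on each array. Sex is as the title and sex label of each sample give it; the housing notes attached to every sample, males included, speak of females, and the labelled sex was not checked on these arrays. RNA came from an aliquot of the ground whole kidney, and the females were not synchronized for estrous cycle. The study asked how kidney miRNAs differ with age and sex, and the questions here were whether these miRNAs changed with age within each sex and differed between the sexes at each age.

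A miRNA is cut from a hairpin transcript into a 5p and a 3p strand, and the strand that is loaded into Argonaute pairs with messenger RNAs mainly through its seed, the bases just after its 5′ end. miR-192 and miR-194 are made from shared primary transcripts and are abundant in epithelia of kidney, intestine and liver, where the hepatocyte nuclear factors HNF1 and HNF4A drive their transcription. In kidney they are mostly known from tubular epithelium, and miR-192 has been studied for its link to TGF-beta signalling and to the repressors ZEB1 and ZEB2. The arrays measured whole kidney, so the cells that held the miRNAs were not identified, and fewer cells of a type and less RNA per cell cannot be told apart.

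The mature sequences from RefSeq (build GRCr8) are shown to make clear which of these miRNAs share a seed and which share a locus, with the seed (bases 2 to 8) in capitals.
miR-192-5p: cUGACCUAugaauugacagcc
miR-215: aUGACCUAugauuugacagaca
miR-194-5p: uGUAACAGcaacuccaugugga
miR-192-3p: cUGCCAGUuccauaggucacag
miR-194-3p: cCAGUGGGgcugcuguuaucu
miR-192-5p and miR-215 have the same seed. Counted from the 5′ end of miR-192-5p, miR-215 differs from it at 3 of 21 positions, C1A, A12U and C20A. No other mature rat miRNA of the RefSeq table had the seed of miR-194-5p or of miR-194-3p, and miR-3084c-3p, which was not on the array, had that of miR-192-3p.

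The genes lie in 2 clusters on the plus strand. Mir194-2 (chr1:212994024-212994108) is followed after 100 bases by Mir192 (chr1:212994209-212994318). Mir194-1 (chr13:99382716-99382798) is followed after 191 bases by Mir215 (chr13:99382990-99383086). The 2 hairpins of miR-194 are printed with the annotated mature strands in capitals, because they show what the arrays could and could not separate.
Mir194-2: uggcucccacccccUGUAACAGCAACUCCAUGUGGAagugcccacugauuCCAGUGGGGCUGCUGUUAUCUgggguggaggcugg
Mir194-1: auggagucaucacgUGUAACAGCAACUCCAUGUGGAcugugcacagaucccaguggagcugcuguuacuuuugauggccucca
The 5p strand is identical in both, so a miR-194-5p signal cannot be assigned to either cluster. RefSeq annotates miR-194-3p from Mir194-2 only. The most similar stretch of Mir194-1 (bases 50 to 70 of the hairpin) differs from miR-194-3p at 3 of 21 positions, G8A, U19C and C20U.

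The values in the text are normalized intensities, the signal of a miRNA divided by the 75th percentile of the 311 expressed miRNAs on its array, or differences between group means of their log2 values. Levels of different miRNAs are not compared, since their probes differ. Between 190 and 264 miRNAs were detected per array, and the 75th percentile ranged from 81.2 to 283. The ages of 2 to 8 weeks and of 15 to 104 weeks were hybridized on different slides, apart from 1 array of a 15-week female, while both sexes of an age shared slides. Of 14 miRNAs listed as markers of nephron epithelium, 13 were expressed. Of 2 listed neuronal miRNAs, miR-124-3p was never detected and miR-9a-5p was expressed.

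Both 5p strands were far above background. The signal before normalization was between 646.9 and 4308 for miR-192-5p and between 214 and 1288 for miR-194-5p, and both were detected on 74 of 74 arrays. The 3p strands, the passenger strands of these hairpins, were close to the detection limit: miR-192-3p had a highest signal of 42.7 and was detected on 73 arrays, and miR-194-3p had one of 11.2 and was detected on 64. Their values varied more, with a median SD within groups of 0.26 (miR-192-3p) and 0.24 (miR-194-3p) on the log2 scale, against 0.11 for miR-192-5p and 0.12 for miR-194-5p. The highest signal of either miR-215 probe was 0.945, below the lowest signal that any array called detected (1.39).

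**Figure D1:**
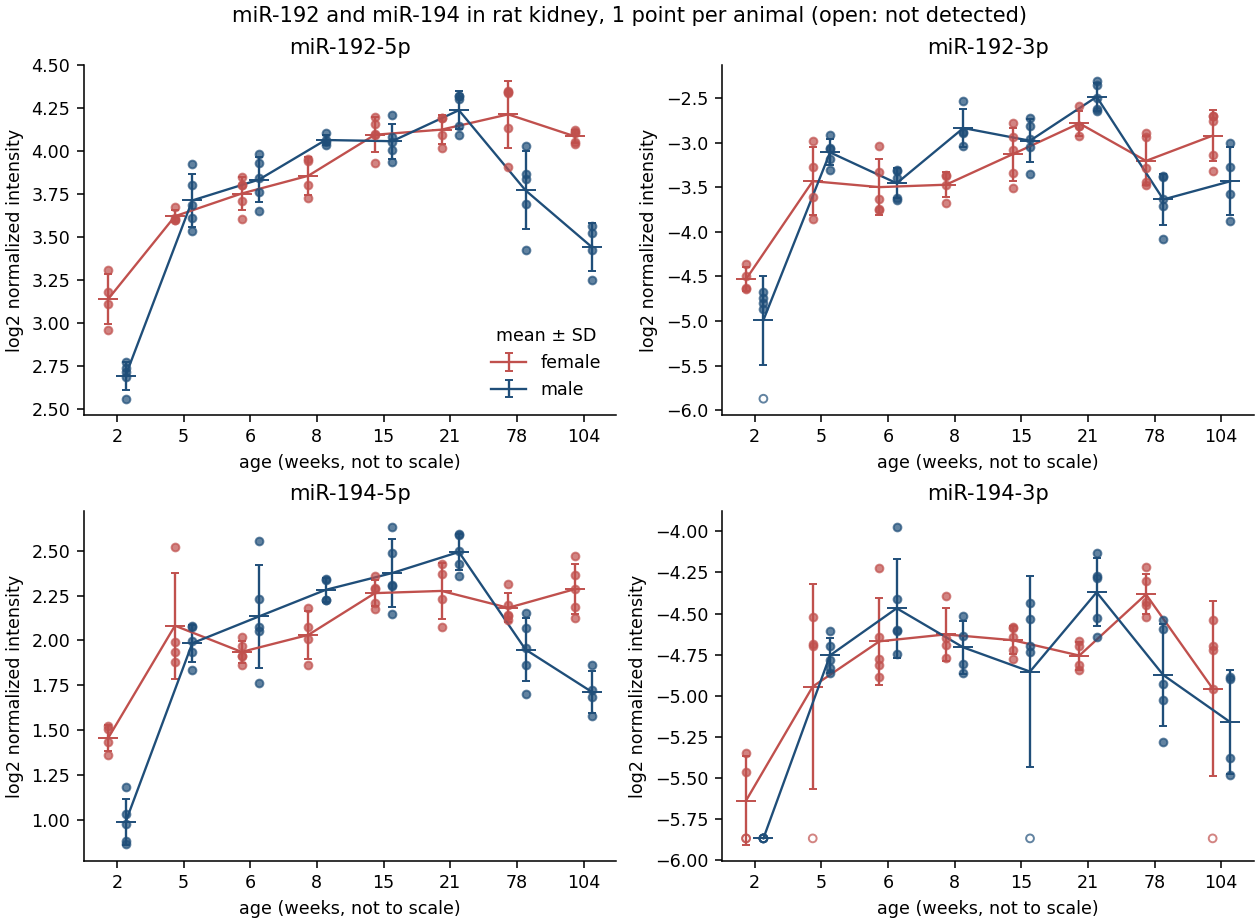
Log2 normalized intensity of each member (vertical axes) at 8 ages (horizontal axes, in weeks, not to scale), with a point for each animal, open where the miRNA was not detected, and the mean and SD of each group. All 4 were lowest at 2 weeks in both sexes; in males miR-192-5p rose from 2.69 at 2 weeks to 4.24 at 21 weeks and was 3.44 at 104 weeks, whereas the females stood at 4.13 and 4.09 at the last 2 of these ages.

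All 4 members changed with age in both sexes. The call for age (limma's moderated F test within a sex, adjusted p under 0.05, with a pair of ages differing by at least 1.5-fold) was made for 36.7% of all expressed miRNAs in females and 45.3% in males. The adjusted p in females was 3.16e-12 for miR-192-5p, 8.74e-08 for miR-194-5p, 7.75e-08 for miR-192-3p and 0.000977 for miR-194-3p. In males it was 4.94e-15, 6.95e-13, 5.39e-12 and 9.22e-07 in the same order. The group means of miR-192-5p spanned 2.92-fold and those of miR-192-3p 5.67-fold over the 16 groups.

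The widest gap between ages lay above 2 weeks. In 2-week males the normalized intensity of miR-192-5p was 6.42, 6.82, 6.67, 6.55 and 5.89, and in 21-week males it was 19.8, 17.1, 20.02, 20.001 and 17.7. The groups did not overlap, and the level rose 2.92-fold (1.55 ± 0.09 SE on the log2 scale, adjusted p = 2.08e-16). In females miR-192-5p was 7.77, 9.92, 9.06 and 8.62 at 2 weeks and 17.1, 16.2, 18.3 and 18.3 at 21 weeks. It rose 1.98-fold, again without overlap (0.99 ± 0.08 SE, adjusted p = 1.01e-11).

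miR-194-5p followed the same course. It was 1.82, 2.26, 2.05, 1.84 and 1.97 in 2-week males and 5.37, 6.02, 5.14, 6.03 and 5.64 in 21-week males, a rise of 2.84-fold (1.51 ± 0.10 SE, adjusted p = 4.40e-14). In females it was 2.57, 2.84, 2.87 and 2.70 at 2 weeks and 5.16, 4.22, 4.70 and 5.37 at 21 weeks, a rise of 1.77-fold (0.82 ± 0.10 SE, adjusted p = 2.95e-08). In neither sex did the ages overlap. Of all expressed miRNAs, 22.5% rose from 2 to 21 weeks in males and 14.5% in females, while all 4 members rose in both sexes.

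The 3p strands rose too. miR-192-3p rose 5.67-fold in males (2.50 ± 0.18 SE, adjusted p = 1.28e-13) and 3.35-fold in females (1.75 ± 0.19 SE, adjusted p = 3.43e-09). Its signal is the sum of the probes that were detected, and the dimmer of its 2 probes was often not. On the brighter probe alone the change was 1.92 in males and 1.36 in females on the log2 scale. miR-194-3p was not well above background on any of the 5 arrays of 2-week males and was detected on 5 of 5 at 5 and at 21 weeks. For a lower bound, each 2-week array was set at its lowest detected signal, or at the signal there of the working probe where that was higher. The other probe stood at the floor. Against these values miR-194-3p was at least 1.84-fold higher at 5 weeks and at least 2.41-fold higher at 21 weeks. These bounds were not tested. The adjusted p for the same steps, 8.54e-06 and 2.75e-08, came from the limma fit, which set every 2-week male at the common floor of 0.0171. In females, 2 of 4 arrays detected miR-194-3p at 2 weeks and 4 of 4 at 21 weeks. The fitted rise was 0.88 ± 0.23 SE on the log2 scale (adjusted p = 0.00194). That female call was lost with slide as a fixed block (0.97, adjusted p = 0.149) and without scaling (1.26, adjusted p = 0.0671), and the step from 2 to 21 weeks crosses the slide sets.

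Much of the rise was present at 5 weeks. In males all 4 members were higher at 5 than at 2 weeks, by 1.02 ± 0.09 SE for miR-192-5p and 0.997 ± 0.10 SE for miR-194-5p on the log2 scale (adjusted p = 1.19e-11 and 1.24e-09), whereas 12.2% of all expressed miRNAs rose in that step. In females miR-194-5p rose by 0.63 ± 0.10 SE (adjusted p = 5.23e-06), miR-192-3p by 1.10 ± 0.19 SE (adjusted p = 1.83e-05) and miR-194-3p by 0.69 ± 0.23 SE (adjusted p = 0.0191). For miR-192-5p the female difference was 0.48 ± 0.08 SE (adjusted p = 1.30e-05), or 1.40-fold, under the fold threshold. So 3 of 4 members rose in females, against 8.36% of all expressed miRNAs. Without the 5-week female replicate 6 the miR-194-5p difference was 0.48, also under the fold threshold. The miR-194-3p call was lost without any 1 of 5 arrays, the 2-week female replicates 3 and 5 and the 5-week female replicates 2, 3 and 5, with differences from 0.55 to 0.62.

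Within the 2- to 8-week slides, where no slide set is crossed, the age call was made for all 4 members in both sexes (21.2% of all expressed miRNAs in females and 30.2% in males). The step from 8 to 15 weeks spans both slide sets. The single array of a 15-week female that lay among those of younger rats had a miR-192-5p log2 value of 4.197. The 8-week females lay between 3.73 and 3.95, and the other 15-week females between 3.93 and 4.16.

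Over all 8 ages, miR-192-5p in females was 8.84 ± 0.893 (SD, n = 4) at 2 weeks, 12.3 ± 0.310 (n = 4) at 5, 13.5 ± 0.890 (n = 5) at 6 and 14.5 ± 1.10 (n = 4) at 8 weeks. It was then 17.1 ± 1.17 (n = 5) at 15 weeks, 17.5 ± 1.02 (n = 4) at 21, 18.7 ± 2.38 (n = 5) at 78 and 16.99 ± 0.424 (n = 5) at 104 weeks. The 4 oldest ages stood next to each other in the order of the means, and no neighbours among them differed by more than their SD on the log2 scale. In males it was 6.47 ± 0.358 (n = 5) at 2 weeks, 13.2 ± 1.43 (n = 5) at 5, 14.3 ± 1.30 (n = 5) at 6 and 16.7 ± 0.341 (n = 4) at 8 weeks. It was 16.7 ± 1.19 (n = 5) at 15 weeks, 18.9 ± 1.41 (n = 5) at 21, 13.8 ± 2.08 (n = 5) at 78 and 10.9 ± 1.03 (n = 4) at 104 weeks. In the male order, 104 weeks came directly above 2 weeks, and the 78-week mean lay between those of 5 and 6 weeks, from which it did not differ beyond the SD.

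For miR-194-5p the female means ran from 2.75 ± 0.137 (SD, n = 4) at 2 weeks through 4.30 ± 0.959 (n = 4) at 5, 3.83 ± 0.158 (n = 5) at 6 and 4.10 ± 0.376 (n = 4) at 8 weeks. They were 4.81 ± 0.248 (n = 5) at 15 weeks, 4.86 ± 0.512 (n = 4) at 21, 4.54 ± 0.262 (n = 5) at 78 and 4.89 ± 0.477 (n = 5) at 104 weeks. Only the gaps above 2 weeks and from 78 to 15 weeks exceeded the SD of both neighbours in that order. In males the mean was 1.99 ± 0.180 (n = 5) at 2 weeks, 3.96 ± 0.279 (n = 5) at 5, 4.46 ± 0.914 (n = 5) at 6 and 4.87 ± 0.223 (n = 4) at 8 weeks. It reached 5.22 ± 0.687 (n = 5) at 15 and 5.64 ± 0.396 (n = 5) at 21 weeks and was 3.88 ± 0.468 (n = 5) at 78 and 3.28 ± 0.269 (n = 4) at 104 weeks. Here too 104 weeks was the lowest male age after 2 weeks, and the gaps on both sides of it exceeded the SD of both neighbours.

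**Figure D2:**
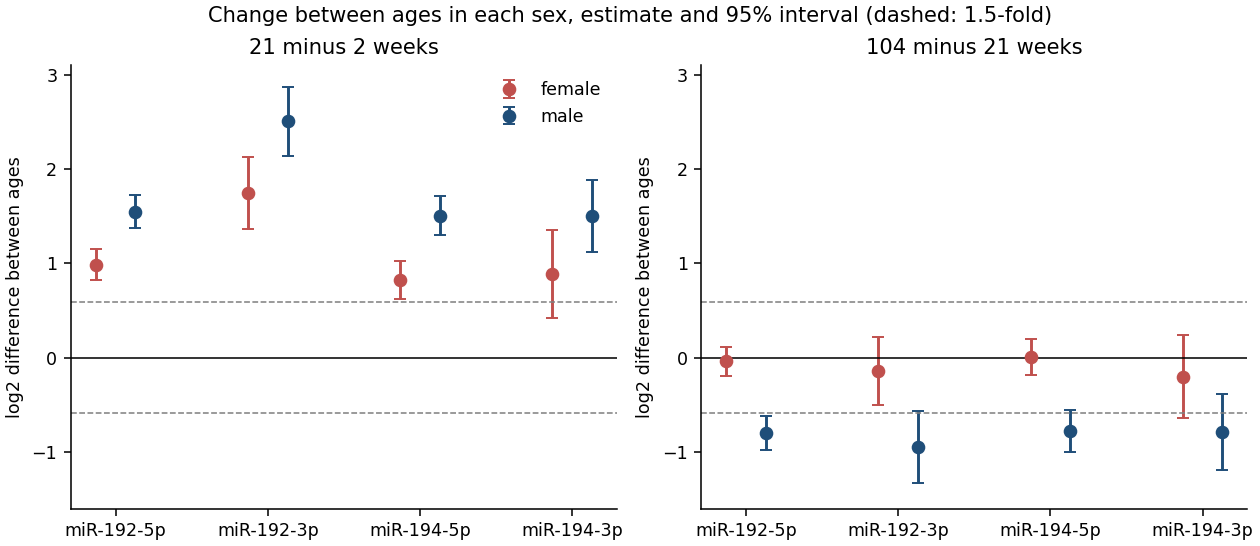
Log2 difference between 21 and 2 weeks (left) and between 104 and 21 weeks (right) for each member in females and males, with 95% intervals and the 1.5-fold threshold dashed. From 21 to 104 weeks all 4 male estimates lie between -0.95 and -0.78, and the 4 female estimates between -0.20 and 0.01.

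From 21 to 104 weeks the members fell in males and none was called in females. Male miR-192-5p at 104 weeks was 10.72, 11.5, 11.8 and 9.51, below each of the 21-week values given above. It fell by 0.80 on the log2 scale (SE 0.09, adjusted p = 5.76e-08), a 1.74-fold change. Male miR-194-5p at 104 weeks was 3.21, 2.98, 3.63 and 3.30, also below all 21-week males, and fell by 0.78 (SE 0.11, adjusted p = 1.65e-06). miR-192-3p fell by 0.95 (SE 0.19, adjusted p = 0.000222) and miR-194-3p by 0.79 (SE 0.20, adjusted p = 0.0027). So 4 of 4 members fell in males, against 8.04% of the expressed miRNAs.

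In females at 104 weeks miR-192-5p was 16.6, 17.2, 17.3, 17.4 and 16.5, within the range of the 21-week females. The female difference was -0.04 for miR-192-5p (95% interval -0.19 to 0.12), 0.01 for miR-194-5p (-0.18 to 0.20), -0.14 for miR-192-3p (-0.50 to 0.22) and -0.20 for miR-194-3p (-0.64 to 0.24), each with an adjusted p of 1. Among all expressed miRNAs 3.22% were called in females in this step. A 1.5-fold change lay outside the first 3 intervals and inside that of miR-194-3p.

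The difference between the sexes in this late change was itself tested. Male minus female, it was -0.76 ± 0.12 SE for miR-192-5p (adjusted p = 2.02e-06), -0.79 ± 0.14 SE for miR-194-5p (adjusted p = 3.79e-05) and -0.81 ± 0.26 SE for miR-192-3p (adjusted p = 0.0196), so 3 of 4 members were called, against 10.6% of all expressed miRNAs. The miR-192-3p call was lost without the 104-week male replicate 2 (-0.66, adjusted p = 0.0819). Setting the floor before scaling (-0.81, adjusted p = 0.132) or taking the percentile over all miRNAs (-0.74, adjusted p = 0.137) also lost it. So did quantile normalization (-0.69, adjusted p = 0.261), no scaling (-0.45) and normexp (-0.37, adjusted p = 0.628). For miR-194-3p it was -0.59 ± 0.29 SE (adjusted p = 0.174). It was called without the 104-week female replicate 5, in which miR-194-3p was not detected (-0.82, adjusted p = 0.027), and on its working probe alone (-0.80, adjusted p = 0.00193). The interaction of age and sex over all 8 ages was called for the same 3, with adjusted p of 3.52e-09 (miR-192-5p), 6.72e-07 (miR-194-5p) and 0.00068 (miR-192-3p), and not for miR-194-3p (adjusted p = 0.173, or 0.0465 without the same array and 0.00164 on the working probe, both called). The interaction was called for 27.7% of the expressed miRNAs. For miR-192-3p the interaction was not called after quantile normalization (adjusted p = 0.0604), without scaling (adjusted p = 0.698) or after normexp (adjusted p = 0.706).

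At 78 weeks the male values were already lower than at 21 weeks. Male miR-192-5p was 12.9, 14.6, 16.3, 14.3 and 10.8 at 78 weeks, each below the lowest 21-week male (17.1). The difference was -0.47 ± 0.09 SE (adjusted p = 0.000115), or 1.38-fold, under the fold threshold. It was -0.54 ± 0.10 SE for miR-194-5p (adjusted p = 0.000192) and -0.50 ± 0.19 SE for miR-194-3p (adjusted p = 0.0428), both also under 1.5-fold, although miR-194-3p passed it without the 78-week male replicate 3 (-0.59, adjusted p = 0.0253). miR-192-3p fell by 1.15 (SE 0.18, adjusted p = 1.78e-05), the only call of 4 members in a step in which 7.40% of all expressed miRNAs fell.

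How large the late male change was depended on the scaling. Of the 311 expressed miRNAs that set the 75th percentile, 166 were detected on all arrays. The median change of these 166 from 21 to 104 weeks in males was -0.20, and with the percentile taken from them alone it was 0.12. With the latter, the male change was -0.48 for miR-192-5p and -0.46 for miR-194-5p (adjusted p = 0.000761 and 0.00917), under 1.5-fold, and the difference of the late change was -0.40 and -0.44 (adjusted p = 0.0597 for both). For miR-192-3p the male change was then -0.63 and called, the difference of the late change -0.45 (adjusted p = 0.346), and the male change of miR-194-3p -0.47 (adjusted p = 0.0651). Relative to the median of the 166, which no such scaling moves, the male change was -0.60 for miR-192-5p and -0.58 for miR-194-5p, and the female change -0.09 and -0.04. Between the sexes, relative to that median, the late change differed by -0.51 and -0.55. After quantile normalization and without scaling the directions of both 5p strands were kept, and neither the male change nor the difference of the late change was called.

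**Figure D3:**
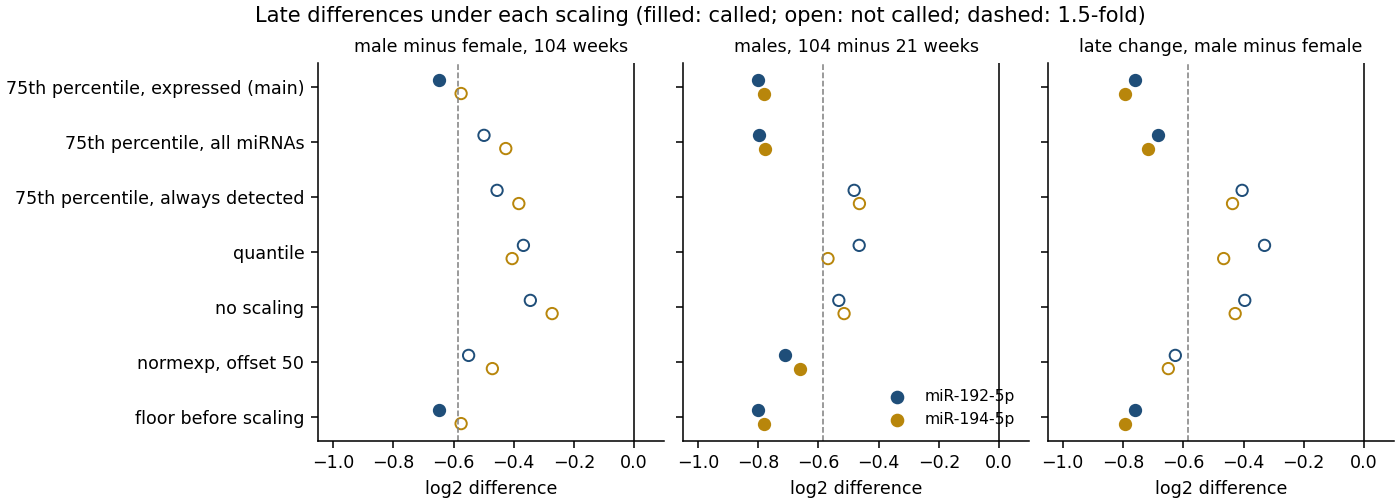
Log2 differences of miR-192-5p and miR-194-5p (horizontal axes) under 7 ways to scale the arrays (rows), for the sexes at 104 weeks, the male change from 21 to 104 weeks and the difference of that change between the sexes. All points lie left of 0, but only the filled ones passed both the adjusted p and the 1.5-fold threshold (dashed).

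Within slides the late male change had the same sign throughout. Males of both ages shared 4 slides, and on each of them all 4 members were lower at 104 weeks. The differences of miR-192-5p ran from -0.90 to -0.67 on the log2 scale, and those of miR-194-5p from -0.91 to -0.50. In females, who also shared 4 slides, the differences of miR-192-5p ran from -0.08 to 0.03 and those of miR-194-5p from -0.24 to 0.24. Over the ages of 15 to 104 weeks alone, the age call was made in males for miR-192-5p, miR-194-5p and miR-192-3p (16.7% of all expressed miRNAs) and not for miR-194-3p (adjusted p = 0.112). The females of these ages include the array of a 15-week female that lay among those of younger rats. In females it was made for none of the 4 (adjusted p between 0.13 and 0.674 by limma, with 7.40% of all expressed miRNAs called).

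The sexes were compared at each age. At 104 weeks the males were lower: the miR-192-5p values of 9.51 to 11.8 lay below all 5 females (16.5 to 17.4), and the difference of 1.57-fold was called (-0.65 ± 0.08 SE, adjusted p = 1.66e-08). For miR-194-5p the females were 4.36, 5.15, 5.55, 4.54 and 4.87 and the males 2.98 to 3.63, again without overlap. That difference was 1.49-fold (-0.57 ± 0.10 SE, adjusted p = 1.28e-05), just under the threshold. miR-192-3p differed by -0.51 ± 0.18 SE (adjusted p = 0.0386) and miR-194-3p by -0.20 ± 0.21 SE (adjusted p = 0.643), and both overlapped. The miR-192-3p difference was called on its brighter probe alone (-0.59, adjusted p = 1.18e-05), without the 104-week female replicate 1 (-0.61, adjusted p = 0.0131) and without the 104-week male replicate 3 (-0.66, adjusted p = 0.00869). Thus 1 of 4 members was called, where 6.11% of all expressed miRNAs were, and 2 of 4 had males entirely below females, where 14.1% of all expressed miRNAs did.

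The 104-week call lay close to the fold threshold. It was lost without the 104-week male replicate 6 (-0.58) and under other scalings, which gave miR-192-5p between -0.50 and -0.34. Relative to the median of the 166 always-detected miRNAs, the difference was -0.49 for miR-192-5p and -0.42 for miR-194-5p. On the 4 slides with both sexes, miR-192-5p differed by between -0.79 and -0.53 and miR-194-5p by between -0.68 and -0.55. Both probes of miR-192-5p gave nearly the same difference, -0.64 and -0.65, and those of miR-194-5p gave -0.62 and -0.42.

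At 78 weeks miR-192-5p was 15.0, 17.6, 20.2, 20.3 and 20.4 in females against the male values given above. The ranges overlapped through the lowest female and the highest male. The difference was -0.44 ± 0.08 SE (adjusted p = 1.78e-05), or 1.36-fold. For miR-194-5p it was -0.23 ± 0.10 SE (adjusted p = 0.0706). No member was called at this age, where 6.75% of all expressed miRNAs were. The males of miR-194-3p lay entirely below the females (8.04% of all expressed miRNAs did so), with a difference of -0.49 ± 0.20 SE (adjusted p = 0.0633).

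At 2 weeks the males were lower as well. All 5 male values of miR-192-5p (5.89 to 6.82) lay below the lowest female (7.77), and all male values of miR-194-5p (1.82 to 2.26) below the lowest female (2.57). The differences were -0.45 ± 0.08 SE (adjusted p = 5.35e-05) and -0.47 ± 0.10 SE (adjusted p = 0.000571), 1.36-fold and 1.38-fold. Both stayed under the fold threshold with the scaling used here and passed it with the percentile taken from the always-detected miRNAs (-0.61 and -0.63). No member was called, where 3.86% of all expressed miRNAs were. The adjusted p alone was under 0.05 for 2 of 4 members, where it was for 10.9% of all expressed miRNAs. With miR-192-3p (-0.46 ± 0.18 SE, adjusted p = 0.0976), 3 of 4 members had males entirely below females, against 6.43% of all expressed miRNAs.

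From 5 to 21 weeks no member was called, and the differences of the 5p strands lay between -0.10 and 0.25. The share of all expressed miRNAs called was 0% at 5 weeks, 0.322% at 6, 1.29% at 8, 3.54% at 15 and 4.82% at 21 weeks. At 8 weeks the estimates of 3 of 4 members were above 0, none of them called, and that of miR-194-3p was -0.08 ± 0.22 SE. All 4 male values of miR-192-5p (16.4 to 17.2) lay above the females (13.2 to 15.5), and the same held for miR-194-5p and miR-192-3p, so 3 of 4 members did not overlap, where 6.75% of all expressed miRNAs had males entirely above females. The differences were 0.21 ± 0.09 SE (adjusted p = 0.241), 0.25 ± 0.11 SE (adjusted p = 0.241) and 0.63 ± 0.19 SE (adjusted p = 0.0507), in that order. That of miR-192-3p was called with slide as a random block (0.64, adjusted p = 0.0291) or as a fixed block (0.65, adjusted p = 0.0465), with scan day as a block (0.65, adjusted p = 0.0446), with a stricter detection filter (0.63, adjusted p = 0.045) and without the 8-week male replicate 3 (0.70, adjusted p = 0.049). On its brighter probe alone it was 0.28 (adjusted p = 0.164). At 21 weeks miR-194-3p was the only member with males entirely above females (0.39 ± 0.21 SE, adjusted p = 0.299), where 7.40% of all expressed miRNAs had such ranges. Over the life span the male minus female difference of miR-192-5p thus went from -0.45 at 2 weeks to 0.21 at 8 weeks and -0.65 at 104 weeks.

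**Figure D4:**
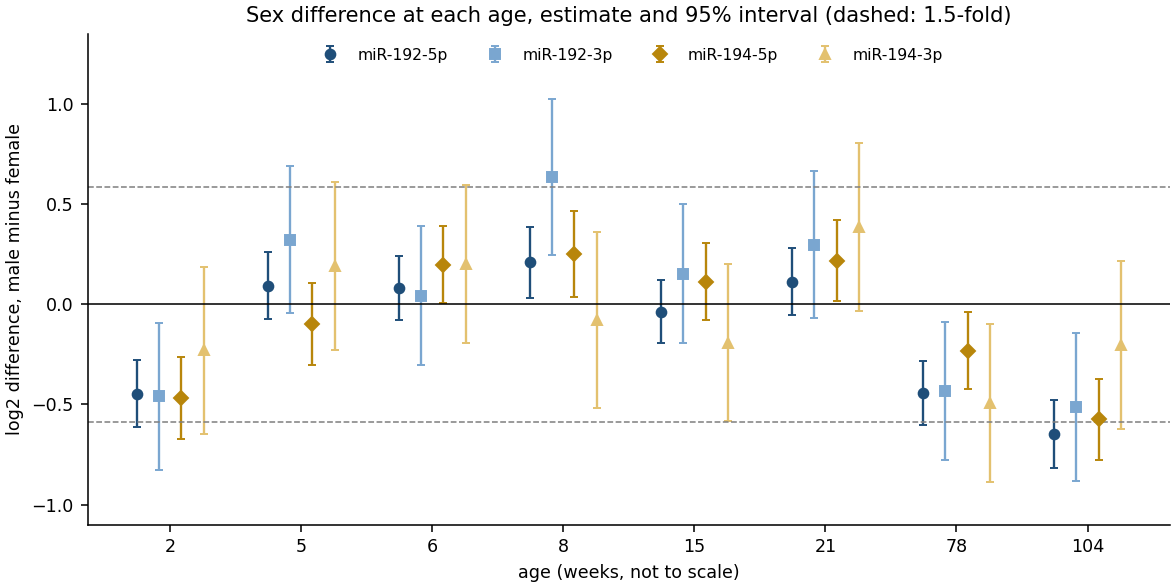
Log2 difference, male minus female, of each member at 8 ages (in weeks, not to scale) with 95% intervals and the 1.5-fold threshold dashed. The intervals, not adjusted for the number of miRNAs, of both 5p strands lie below 0 at 2, 78 and 104 weeks. They lie above 0 at 8 weeks, where the estimates are 0.21 and 0.25 and neither was called.

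The proportion of miR-192-5p to miR-194-5p varied less over the groups than that of the 2 strands of miR-192. The log2 difference between miR-192-5p and miR-194-5p on the same array, which does not depend on scaling, had group means between 1.54 in 5-week females and 2.03 in 78-week females, a span of 0.49, with a median SD within groups of 0.14. In males at 104 weeks it was 1.73 ± 0.172 (SD, n = 4), against 1.75 ± 0.182 (n = 5) at 21 and 1.71 ± 0.119 (n = 5) at 2 weeks, so the male groups at both ends of life differed by less than the SD. The 5p minus 3p difference of miR-194 had a like span over the groups, 0.47, with a median SD of 0.23, and that of miR-192 a wider one, 0.94, with a median SD of 0.22. For miR-192, the 5p minus 3p difference was 7.67 ± 0.104 (SD, n = 4) in 2-week females and 6.91 ± 0.153 (n = 4) in 21-week females. In males it was 7.44 ± 0.096 (n = 4, without the array that missed the 3p strand) and 6.73 ± 0.182 (n = 5), and the ages did not overlap in either sex. This compares signals whose 3p part drops a probe when it is not detected, and the part of that in the difference was not tested.

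Over the 16 group means, the Pearson correlation between miR-192-5p and miR-194-5p was 0.97, and the other pairs of members lay between 0.81 and 0.95. These are descriptions, since all miRNAs come from the same arrays. Among 164 other miRNAs detected on all arrays, the 5 most like miR-192-5p were miR-200b-5p (r = 0.93), miR-200a-3p (0.92), miR-22-3p (0.92), miR-26b-5p (0.92) and let-7b-5p (0.91). The miR-200 family is known to hold epithelial identity by repressing ZEB1 and ZEB2. For miR-194-5p they were miR-22-3p (0.94), miR-200b-5p (0.90), miR-185-5p (0.89), miR-200a-3p (0.87) and let-7b-5p (0.87). miR-22-3p was among the 5 of all 4 members, and led for miR-192-3p as well (0.93), while let-7b-5p led for miR-194-3p (0.94).

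Marker miRNAs of cell types were counted over the same step, 21 to 104 weeks. Of the 13 expressed miRNAs of nephron epithelium, 2 fell from 21 to 104 weeks in males and none rose, with a median difference of -0.44 against -0.05 over all 311 tested, of which 25 fell (8.04%) and 18 rose (5.79%). The size of this median moved with the scaling. It was -0.12 with the percentile of the 166 always-detected miRNAs and -0.17 with no scaling, and under each of these its distance from the median of those 166 was -0.24. The 2 were miR-204-5p (-0.70 ± 0.13 SE, adjusted p = 6.23e-05), which is enriched in renal tubules, and miR-30c-5p (-0.65 ± 0.16 SE, adjusted p = 0.00174). In females none of the 13 was called and their median difference was 0.06, and between -0.04 and 0.02 with these scalings. The sum of their normalized intensities was 130.2 to 148 in 21-week males and 96.8 to 117 in 104-week males, against 129 to 148 and 124 to 152 in females. This sum and those of the lists below are given only with the scaling used here. Under it the median sex difference of the 166 at 104 weeks was -0.16, male minus female. With the percentile taken from the 166 it was 0.04. At 104 weeks, male minus female, 1 of the 13 was lower (miR-30c-5p, -0.66 ± 0.17 SE, adjusted p = 0.00184), where 2.89% of all expressed miRNAs were. For miR-204-5p the difference had the other sign, 0.26 ± 0.12 SE, and was not called (adjusted p = 0.104). The median of the 13 was -0.40, against -0.02 over all 311. With the percentile of the always-detected miRNAs, that of all miRNAs and no scaling, that median was between -0.26 and -0.10, and its distance from the median of the 166 was -0.25 under each.

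Leukocyte markers went the other way. Of the 5 listed miRNAs 4 were on the array. All 4 rose from 21 to 104 weeks in males, where 5.79% of all expressed miRNAs did. Their median was 1.22, and 1.49 to 1.54 with the percentile of the always-detected miRNAs or no scaling. miR-142-3p, which is largely restricted to cells of the blood lineage, leukocytes included, rose by 1.495 ± 0.26 SE (adjusted p = 5.67e-05). The myeloid miR-223-3p rose by 0.95 ± 0.13 SE (adjusted p = 8.85e-07). miR-142-5p was detected on 10 of 74 arrays, so its fitted difference depends on the floor. In females 1 of 4 rose, where 1.29% of all expressed miRNAs did, miR-142-3p (0.79 ± 0.18 SE, adjusted p = 0.00312). The summed intensity of the 4 was 3.07 to 3.70 in 21-week males and 5.56 to 7.67 in 104-week males, against 2.49 to 2.95 and 3.32 to 3.55 in females, and 4 of 4 were higher in males at 104 weeks, where 3.22% of all expressed miRNAs were. Of 5 miRNAs of mesenchyme and smooth muscle, all expressed, 2 rose in males, against 5.79% of all expressed miRNAs, and none in females. The 2 were miR-199a-5p (0.75 ± 0.11 SE, adjusted p = 2.22e-06) and miR-214-3p (0.60 ± 0.12 SE, adjusted p = 0.000222). In males miR-199a-3p, the median of the 5, was at 0.38, under 1.5-fold. The smooth-muscle miR-145-5p (-0.37 ± 0.38 SE) and miR-143-3p (-0.02 ± 0.09 SE) were not called. Their summed intensity was 17.5 to 20.1 in 21-week males and 19.8 to 23.0 in 104-week males. From 2 to 21 weeks, while all 4 members rose, 5 of 13 nephron miRNAs rose in males (median 0.50) and 2 of 13 in females (median 0.27), where 22.5% and 14.5% of all expressed miRNAs rose. In that step 3 of 5 mesenchymal miRNAs fell in each sex (medians -0.97 in males and -0.85 in females), where 16.1% and 13.5% of all expressed miRNAs fell. The part of these cell types in the miR-192 and miR-194 differences was not tested.

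**Figure D5:**
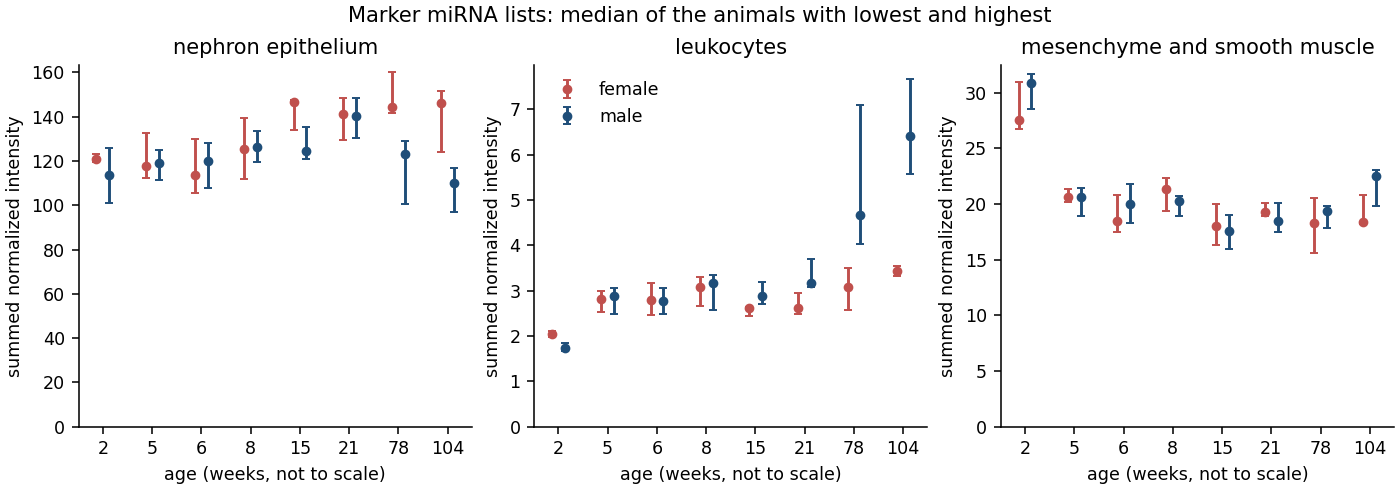
Summed normalized intensity (vertical axes, from 0) of the expressed marker miRNAs of nephron epithelium (13), leukocytes (4) and mesenchyme and smooth muscle (5) at 8 ages in weeks, with the median of the animals as a point and the lowest and highest animal as bars. With the scaling used here, males at 104 weeks lie below females for nephron epithelium (96.8 to 117 against 124 to 152). They lie above them for leukocytes (5.56 to 7.67 against 3.32 to 3.55). The sums are not given under other scalings.

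Liver also holds much miR-192 and miR-194, and its marker miR-122-5p differed between groups. At 2 weeks it was 23.6 in male replicate 1, 0.397 to 0.611 in the other 4 males and 0.0774 to 0.107 in the females. Male replicate 1 had a miR-192-5p of 6.42 and a miR-194-5p of 1.82, the former within the other males and the latter just below their lowest (1.84), and without it the sex difference at 2 weeks was -0.44 for both miRNAs. The highest male had a miR-122-5p of 3.91 at 5 weeks (male median 0.0637) and of 5.82 at 6 weeks (male median 0.25). At 104 weeks miR-122-5p was 0.293 to 0.672 in females and 0.0148 to 0.175 in males, who also had the lower miR-192-5p. The part of liver RNA in the miR-192 and miR-194 differences was not tested.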

How the data were processed

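The authors measured kidney RNA of 74 rats, 1 on each array, in 1 colour. Their deposited scanner values are intensities. Agilent Feature Extraction 10.7.3.1, named in the file headers, subtracted background and summed a miRNA's detected probes (20 spots, 2 probes for each member), with 0.1 for undetected miRNAs and no normalization between arrays. The authors also deposited a normalized table, of which 5 of 74 columns equalled the array of the sample named and 69 another (tolerance 0.02 on the log2 scale). It was not used.

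Signals were scaled within arrays to the 75th percentile over the 311 expressed miRNAs. Values under 0.0171, the lowest detected signal over the smallest percentile, were raised to it, and log2 was taken. Limma 3.58.1 in R 4.3.3 fitted 16 group means (58 residual degrees of freedom) for sex differences and interaction, and each sex alone for age. P-values were adjusted by Benjamini-Hochberg over 311 miRNAs. Calls needed an adjusted p under 0.05 and 1.5-fold. Intervals are at 95%. The fits were tested on simulated data. The number of arrays per group limits the precision. Each array held RNA of another animal.

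Members, lists, tests and alternatives were chosen with earlier results of these data known. Named miRNAs were the members, the 5 with the highest correlation over 16 group means, seed sharers, and up to 4 examples of each list with the largest change. Marker names were matched with the arm or with no arm given. Sequences and positions are from RefSeq (GRCr8), in which 615 of 677 array names were found. Alternatives covered scaling, floor, background, outlier spots, filters, the methods' t-test and ANOVA, slide, scan day, replicate number, single probes and each array left out.

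Replicate numbers did not pair the animals: same-numbered arrays of both sexes correlated at 0.0377 on average over 28 pairs after group means were removed, with a lowest of -0.614, and others at -0.00385 over 143.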

Additional observations from a re-analysis of the deposited data

Results flagged for a closer look

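In 4 of 64 groups of a member at an age and sex, 1 animal stood apart from the others by the Dixon criterion, which chance meets in about 1 of 20 groups. For miR-192-5p, 5-week female replicate 2 had a log2 value of 3.67, and the other 3 lay between 3.598 and 3.61. For miR-192-3p, 2-week male replicate 2 was not detected and stood at the floor of -5.87, with the other 4 between -4.87 and -4.67. For miR-194-3p, 5-week female replicate 6 and 15-week male replicate 4 were not detected and stood at -5.87, with the others between -4.70 and -4.52 and between -4.73 and -4.44.

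The change from 21 to 104 weeks differed between the sexes by a test of the difference itself, male minus female, for miR-192-5p (-0.76), miR-194-5p (-0.79) and miR-192-3p (-0.81). The interaction of age and sex was called for the same miRNAs, with adjusted p of 3.52e-09, 6.72e-07 and 0.00068 by limma.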

How the results depend on the processing

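The 57 results on the members were recomputed under up to 23 alternatives, besides leaving out each array; of the values of called results 483 remained called with their direction, 59 were no longer called and 4 turned direction. At 104 weeks the sex difference of miR-192-5p was no longer called with the 75th percentile over all miRNAs (-0.50), over those detected on all arrays (-0.46), with quantile normalization (-0.37), no scaling (-0.34) or normexp (-0.55), and that of miR-194-5p became called on its first probe (-0.62), with outlier spots left out (-0.60), the replicate block (-0.59) or no fold threshold (-0.57). The male change from 21 to 104 weeks was not called with the percentile over the always-detected miRNAs (miR-192-5p -0.48, miR-194-5p -0.46), quantile normalization (-0.46, -0.57) or no scaling (-0.53, -0.51). The difference of the late change was not called under these (-0.40, -0.44; -0.33, -0.47; -0.40, -0.43) or normexp (-0.63, -0.65). Without scaling (0.92, 0.83 as the range of the sex differences) and after normexp (1.28, 0.99) the interaction was not called, nor, without scaling, the female age effect (span 1.06, 0.90) and the female rise of miR-194-5p from 2 to 21 weeks (0.87). At 2 weeks both sex differences became called with the always-detected percentile (-0.61, -0.63) or no fold threshold (-0.45, -0.47), as did miR-192-5p at 78 weeks with the latter (-0.44).

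Normexp turned the direction of miR-192-5p at 2 weeks (0.0245), of miR-192-3p at 8 weeks (-0.22) and of the female rises from 2 to 5 and to 21 weeks of miR-192-3p (-0.0375, -0.18) and miR-194-3p (-0.13, -0.41). Normexp was run on median spot signals with an offset of 50. The signals given for the 3p strands are summed over probes, so they cannot be set against that offset. Without scaling, miR-192-5p from 2 to 5 weeks in females (-0.0019), miR-194-3p at 104 weeks (0.22) and miR-194-5p at 78 weeks (0.16) turned, the last also with the percentile over all miRNAs (0.0109). The uncalled female change from 21 to 104 weeks turned for miR-192-5p with the replicate block (0.00045). For miR-192-3p it turned with normexp (0.0412), outlier spots out (0.00252) or its second probe (0.0299), and for miR-194-3p with the same (0.0617, 0.00904, 0.0103). For miR-194-5p it turned with the percentile over all miRNAs (-0.0613) or the always-detected ones (-0.0273), no scaling (-0.087), normexp (-0.0116), quantile normalization (-0.10), scan day (-0.00586) and slide (-0.00574). The cause was not tested.

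Leaving out 1 array moved these female changes to between -0.0562 and 0.0598 (miR-194-5p) and -0.31 and 0.0273 (miR-194-3p). The 104-week sex difference then lay between -0.69 and -0.58 for miR-192-5p, not called without male replicate 6, and between -0.62 and -0.53 for miR-194-5p, called without female replicate 1 or 4 or male replicate 3. With the replicate block, no call on the 5p strands changed other than those given, and the methods' t-test and ANOVA changed none of the results they were run on. Slide as a fixed block could not be fitted within males, and the first probe of miR-194-3p, at the floor throughout, gave no value.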

Other observations

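The other lists were counted in the same step, 21 to 104 weeks, in which 5.79% of all expressed miRNAs rose in males and 1.29% in females. Of 7 fibrosis-linked miRNAs, all expressed, 3 rose in males (median 0.28) and 1 in females (0.39), and of 5 p53-responsive miRNAs 3 rose in males (median 1.02) and 1 in females (0.09). These lists share miR-34a-5p. Of 2 endothelial miRNAs none was called in either sex (medians -0.15 in males and -0.02 in females), and of 2 expressed erythroid miRNAs 1 rose in each sex (medians 0.45 and 0.44). The liver's miR-122-5p rose in females (2.81) and was not called in males (1.17). The neuronal miR-9a-5p fell in males (-0.69) and was not called in females (-0.34).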
